A study of Mus musculus with 13 samples.

Results

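The CXC chemokines are small secreted proteins named for the pair of cysteines near their start that a single residue separates. The deposited table was searched for 10 of their genes by symbol, namely Cxcl1, Cxcl2, Cxcl3, Cxcl5, Cxcl9, Cxcl10, Cxcl12, Cxcl13, Cxcl14 and Cxcl16, and all 10 were found among 15213 listed genes. RNA sequencing was compared between 10 tumors, taken from 6 females of the genotype MMTV-tTA TetO-Tsg101, and mammary glands from 3 FVB females of wild-type genotype. In the tumor-bearing mice, the MMTV promoter drives the tTA transactivator in the mammary epithelium, and without doxycycline tTA switches on a TetO transgene that encodes HA-tagged TSG101 together with luciferase. The detailed work was done on a single founder line in the FVB/N background, and the glands carried neither transgene. Tumor 1, tumor 4 and tumor 7 each came from a mouse of their own, whereas tumors 2 and 3, tumors 5 and 6, and tumors 8, 9 and 10 shared a mouse. The age and reproductive stage of the sequenced animals are not given in the sources used here, and 6 milk protein genes were summed to 147746 to 272246 normalized cpm (reads divided by an effective library size) in the glands against 1381 to 73422 in the tumors, with all 6 called lower. Genotype, tumor and gland tissue, and any difference in age or stage can therefore not be told apart in this comparison.

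Chemokines bind G protein-coupled receptors on leukocytes and set the direction in which these cells migrate. CXC chemokines that carry the residues glutamate, leucine and arginine (ELR) directly before the first cysteine act on CXCR2 and attract neutrophils, whereas CXCL9 and CXCL10 are induced by interferon and attract activated T cells through CXCR3. CXCL12 is made by stromal cells and acts on CXCR4 and ACKR3, CXCL13 guides B cells through CXCR5 into lymphoid follicles, CXCL14 is made constitutively by epithelia, and CXCL16 is anchored in the membrane and binds CXCR6.

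The codons around the first cysteine pair show which members belong to the ELR group. Each stretch below is the coding strand from the GENCODE vM21 transcripts of GRCm38.p6, ending in the codon of the second cysteine, and capitals mark the codons of glutamate, leucine and arginine.
Cxcl1: GAGCTGCGCtgtcagtgc
Cxcl2: GAACTGCGCtgtcaatgc
Cxcl3: GAGCTGCGCtgtcagtgc
Cxcl5: GAGCTGCGTtgtgtttgc
Cxcl9: aatgcacgatgctcctgc
Cxcl10: acggtccgctgcaactgc
Cxcl12: agctaccgatgcccctgc
Cxcl13: aacttaaaatgtaggtgt
Cxcl14: gggtccaagtgtaagtgt
Cxcl16: gctggaagttgttcttgt
Cxcl1, Cxcl2, Cxcl3 and Cxcl5 carry the ELR codons and the other 6 members do not. The stretches of Cxcl1 and Cxcl3 are identical. In the annotation, Cxcl5, Cxcl3, Cxcl1 and Cxcl2 lie in this order on the plus strand of chromosome 5 within 147 kb (mm10, chr5:90759298-90905938). The CXC ligand genes Pf4 (chr5:90772435-90773383) and Cxcl15 (chr5:90794534-90803067), which are not among the 10 members, lie in the same interval. Cxcl9 and Cxcl10 are neighbours on the minus strand of the same chromosome (chr5:92321331-92348889), and Cxcl13 lies farther on (chr5:95956939-95961068). Cxcl12 is on chromosome 6 (chr6:117168535-117181368), Cxcl14 on chromosome 13 (chr13:56288643-56296811) and Cxcl16 on chromosome 11 (chr11:70454389-70459984). The longest identical run between transcripts was 110 bases for Cxcl2 and Cxcl3 and 23 bases for Cxcl1 with either of them. Which of these genes a read in such a run came from cannot be recovered from normalized values, so the split between Cxcl2 and Cxcl3 is uncertain.

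Upstream sequence is shown for the chemokines that share a binding motif of NF-kappaB, a transcription factor of the inflammatory response, and for Cxcl9 as a neighbour of Cxcl10 without a match. RefSeq promoters of GRCm38.p6 were matched for 8 of the 10 members, without Cxcl5 and Cxcl16. Each stretch holds the 110 bases before the annotated start in the direction of transcription, and capitals mark matches to the kappa-B consensus on either strand.
Cxcl1 (chr5:90891135-90891244, plus strand): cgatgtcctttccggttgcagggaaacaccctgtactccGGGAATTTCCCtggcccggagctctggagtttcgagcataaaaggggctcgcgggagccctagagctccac
Cxcl2 (chr5:90903789-90903898, plus strand): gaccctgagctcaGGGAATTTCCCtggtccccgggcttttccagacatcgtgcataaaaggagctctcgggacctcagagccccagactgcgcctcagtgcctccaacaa
Cxcl3 (chr5:90785991-90786100, plus strand): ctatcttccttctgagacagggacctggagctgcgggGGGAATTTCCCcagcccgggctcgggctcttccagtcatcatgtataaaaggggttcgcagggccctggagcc
Cxcl10 (chr5:92348890-92348999, minus strand): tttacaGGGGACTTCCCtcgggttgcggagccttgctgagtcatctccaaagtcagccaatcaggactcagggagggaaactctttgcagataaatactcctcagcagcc
Cxcl9 (chr5:92328080-92328189, minus strand): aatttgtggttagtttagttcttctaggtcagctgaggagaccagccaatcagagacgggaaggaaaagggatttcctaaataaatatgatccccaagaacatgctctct
The 11 bases GGGAATTTCCC occurred in Cxcl1, Cxcl2 and Cxcl3, beginning at -71, -97 and -73 from the start, and in 14 of 32851 mouse promoters (0.0426%). The kappa-B consensus in any form was found in 8.46% of these promoters. These matches describe letters in the window and are not evidence of binding.

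Values are reads divided by an effective library size, called normalized cpm here. Depth ran from 6176269 to 16835397 reads per tumor library and from 11672487 to 23889042 per gland library, so that 3 reads, the limit that a count of 0 allows, correspond to 0.141 to 0.683 normalized cpm in the tumors and 0.128 to 0.366 in the glands. Ribosomal Rn45s took 0.456% to 27.4% of the tumor reads, with the highest share in tumor 9, and 0.296% to 4.35% of the gland reads. Tsg101 was at 49.9 to 101 normalized cpm in the tumors and at 45.6, 53.0 and 61.0 in the glands, and the difference was not called (log2 fold change 0.30 ± 0.20, SE, limma, adjusted p = 0.296). The epithelial keratin Krt8 was present in every library. The glands differed among themselves. The summed level of 11 T cell markers was 613 and 530 in glands 1 and 3 but 31.2 in gland 2. Gland 2 therefore stood apart for lymphocyte transcripts. With all glands, 10 of 11 T cell markers and 7 of 10 B cell markers were called lower, beside 10.1% of all listed genes. Without gland 2, 11 of 11 and 10 of 10 were called lower, beside 10.1% in that fit. Gland 2 was left out because of these same markers, so the larger counts follow from that choice and are not support. Among the tumors, skeletal muscle markers were summed to 2110 in tumor 4 and 398 in tumor 10 against 8.24 to 20.7 in the others.

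A gene was called when limma, fitted to log2(normalized cpm + 1) over the whole table, gave an adjusted p below 0.05 and a log2 fold change beyond 1. Fitted over all 15213 listed genes, Cxcl1, Cxcl2, Cxcl5 and Cxcl14 were called higher in the tumors and Cxcl9 and Cxcl12 lower, which is 6 of the 10 members. Of all listed genes, 10.5% were called higher and 10.1% lower. The study's filter, which drops genes that do not exceed 5 normalized cpm in most libraries, left 11795 genes and 6 members. Cxcl1, Cxcl2 and Cxcl5 passed it only through the tumors, and Cxcl9 and Cxcl13 were dropped although glands exceeded the limit. With the filter, the same 4 members were called higher and Cxcl12 lower, beside 10.2% and 6.99% of the genes tested (1204 and 825 genes). This split of all calls depended on the scaling, since plain cpm gave 1864 higher and 495 lower and scaling to epithelial genes gave 512 and 4545. These scalings moved the median log2 change over all tested genes by 0.31 and -0.87. The 12 epithelial genes of the latter scaling include Krt7, Krt5, Krt14 and Cldn4. These were themselves called higher (log2 fold changes 3.32, 2.82, 1.73 and 1.59), so this scaling does not follow epithelial content alone. In bulk tissue, fewer cells of a type and less RNA per cell cannot be told apart.

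**Figure D1:**
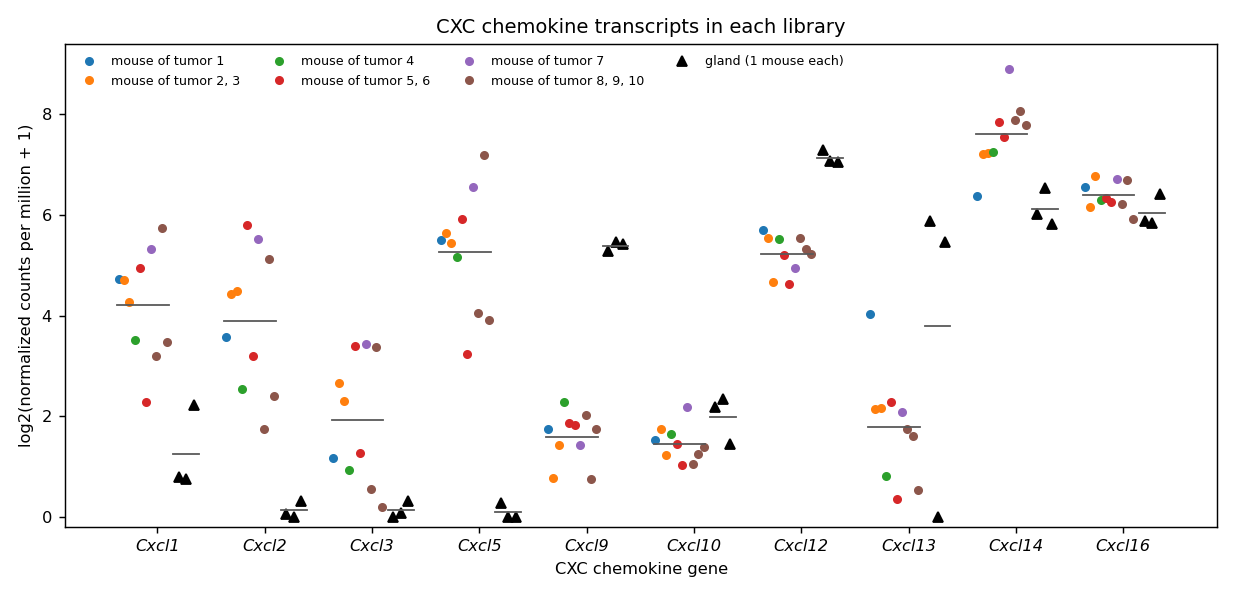
The log2(normalized cpm + 1) of each CXC chemokine is plotted for every library, with circles for the 10 tumors, colored by mouse, triangles for the 3 glands and lines for the group means. All tumors lie above all glands for Cxcl1, Cxcl2 and Cxcl5, all tumors lie below all glands for Cxcl9 and Cxcl12, and gland 2 lies at 0 for Cxcl13.

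Of the 4 ELR chemokines, Cxcl1, Cxcl2 and Cxcl5 were called higher in the tumors and Cxcl3 was not. Cxcl5, a neutrophil attractant that epithelial cells can release, ranged from 8.40 in tumor 6 through a median of 43.4 to 145 in tumor 9, whereas the glands held 0.214, 0 and 0. All 10 tumors lay above the glands, as they did for 11.4% of all listed genes. The lowest tumor was 39.2-fold above gland 1, the highest gland by value. The 3-read floor of gland 3 is higher, at 0.366, so that this fold is not a lower bound. The 3 glands held 5, 0 and 0 reads of Cxcl5 against 89 to 893 in the tumors. The log2 fold change of 5.17 ± 0.65 (SE, limma) depends on the added constant of 1 because the glands are near 0. Its adjusted p was 3.58e-05 in the filtered fit and 2.86e-05 in the fit over all listed genes (limma). The tumor mean was 237-fold above gland 1, and at least 327-fold and 138-fold above the 3-read floors of glands 2 and 3.

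Cxcl2, which macrophages and neutrophils release early in inflammation, ranged from 2.35 in tumor 8 through a median of 15.8 to 54.8 in tumor 5. The glands held 0.0428, 0 and 0.244, which is 1, 0 and 2 reads. Groups did not overlap, and 11.4% of all listed genes likewise had all tumors above all glands. The tumor mean of 20.6 ± 18.4 (SD, n = 10) was 95.3-fold above the mean 3-read floor of the glands. That floor is the limit for 0 reads, and the level behind 1 or 2 reads can lie above it. The log2 fold change was 3.76 ± 0.74 (SE, limma, adjusted p = 0.00152 with the filter and 0.00128 over all listed genes).

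Cxcl1 was the ELR member with the most transcript in the glands, at 0.728, 0.671 and 3.66 normalized cpm. In the tumors it ranged from 3.87 in tumor 6 through a median of 21.8 to 52.3 in tumor 9. The lowest tumor was only 1.06-fold above the highest gland, so that the groups were separated by little. The tumor mean was 30.6-fold, 33.2-fold and 6.09-fold above glands 1, 2 and 3. The log2 fold change was 2.97 ± 0.61 (SE, limma, adjusted p = 0.00201 with the filter and 0.00171 over all listed genes).

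Cxcl3 was the lowest of these genes in the tumors and was not past the filter. It ranged from 0.148 in tumor 10 through a median of 2.67 to 9.86 in tumor 7, and the glands held 0, 0.0516 and 0.244. The glands held 0, 1 and 2 reads, tumor 10 held 1 and tumor 8 held 4. Counts this small do not order tumor 10 against the glands, nor tumor 8 against gland 3. By value, 9 tumors lay above all glands. The log2 fold change was 1.80 ± 0.66 with a 95% interval of 0.38 to 3.22 (limma, adjusted p = 0.0512), just outside the threshold. The tumor mean was 19.5-fold above the mean 3-read floor of the glands, a limit that holds only for 0 reads. The log2 estimate, which depends on the added constant, ran from 0.85 to 5.79 over the alternatives. On the recovered reads Cxcl3 was called by edgeR (log2 fold change 5.77, adjusted p = 0.00980) and by DESeq2 (5.79, adjusted p = 1.84e-05), and limma called it with the tumors of each mouse averaged (adjusted p = 0.0218). Limma also called it without tumor 4, tumor 8 or tumor 10 (adjusted p = 0.0439, 0.0359 and 0.0252).

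The ELR members varied widely between tumors, also within a mouse. Cxcl1 differed 13.5-fold, Cxcl2 23.3-fold and Cxcl5 17.2-fold between the highest and the lowest tumor. Tumors 5, 7 and 9 held the 3 highest values of each of the 4 genes, and tumors 6, 8 and 10 were among the 5 lowest for each of them. Tumors 5 and 6 came from the same mouse and differed 7.74-fold in Cxcl1, 6.67-fold in Cxcl2 and 7.07-fold in Cxcl5. Tumors 8, 9 and 10 shared a mouse and spanned 6.45-fold in Cxcl1, 14.4-fold in Cxcl2 and 10.3-fold in Cxcl5. Tumors 2 and 3 of another mouse were alike, with spans of 1.38-fold, 1.04-fold and 1.15-fold. The spread between tumors of the same female could thus be as wide as most of the whole range.

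Over the 10 tumors, which share mice, the log2 levels of Cxcl1 and Cxcl5 had a Pearson r of 0.96 and those of Cxcl2 and Cxcl3 of 0.96. The part of the sequence shared by Cxcl2 and Cxcl3 in the latter value was not tested. Cxcl1 had an r of 0.80 with Cxcl2 and of 0.79 with Cxcl3. Among 9 pairs of measures fixed for testing over the 6 mouse means, Cxcl1 with Cxcl5 had a Pearson r of 0.89 (exact permutation test, two-sided, p = 0.0139, adjusted p = 0.125) and a Spearman rho of 0.77 (exact permutation p = 0.103, adjusted p = 0.435). Without the 2 mice farthest from the median of Cxcl1, r was 0.97 over 4 mice. Cxcl1 with Cxcl2 had r = 0.65 (exact permutation p = 0.164, adjusted p = 0.295) and rho = 0.60 (exact permutation p = 0.242, adjusted p = 0.435), and r fell to -0.30 without 2 mice. Cxcl1 with Cxcl3 had r = 0.58 (exact permutation p = 0.228, adjusted p = 0.342) and rho = 0.60 (exact permutation p = 0.242, adjusted p = 0.435), with r = -0.44 without 2 mice. The sign of both relations of Cxcl1 thus turned without these 2 mice, while leaving out any single mouse kept r between 0.28 and 0.91 with Cxcl2 and between 0.08 and 0.80 with Cxcl3. None of the 9 pairs passed after adjustment, and the smallest p that 6 mice allow is 0.00278.

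**Figure D2:**
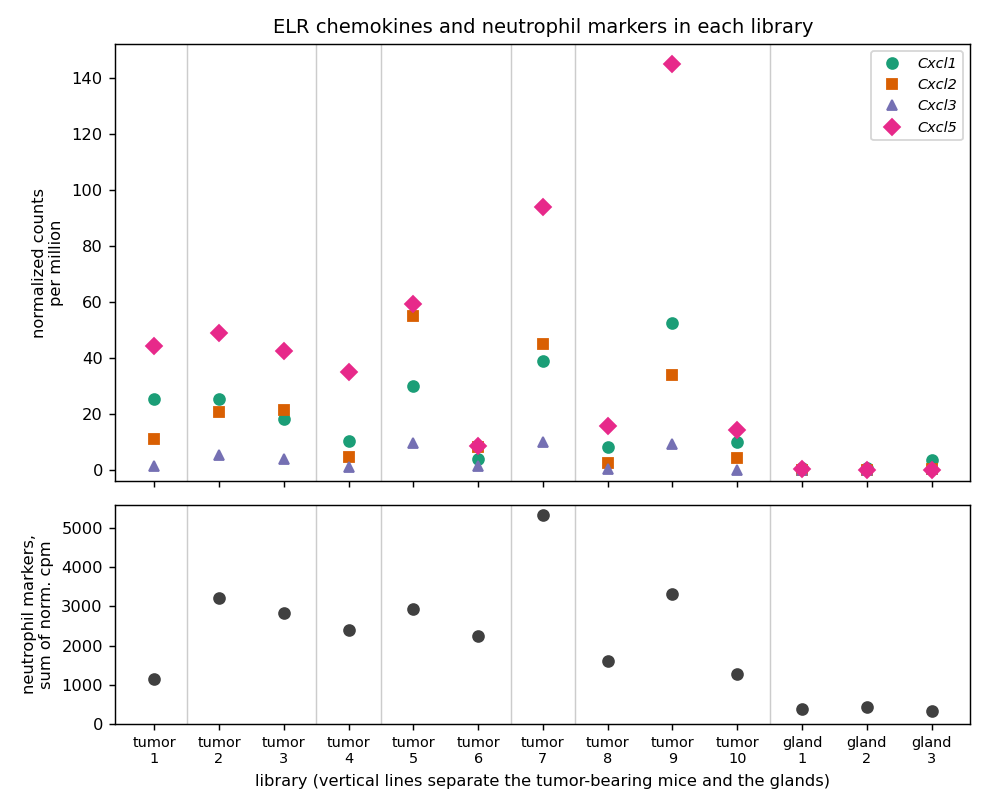
The upper panel plots the normalized cpm of Cxcl1, Cxcl2, Cxcl3 and Cxcl5 in each library, and the lower panel the summed normalized cpm of the listed neutrophil markers. Vertical lines separate the mice. Tumors 5, 7 and 9 carry the highest ELR chemokine values, and the marker sum, to which Ltf gives 81.8% to 98.9% in the glands, is 1152 to 5346 in the tumors against 316 to 413 in the glands.

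Neutrophil markers were counted beside the ELR chemokines. Of 11 listed neutrophil markers, 7 were called higher in the fit over all genes and none lower, beside 10.5% and 10.1% of all listed genes. The median log2 fold change of the markers was 1.99 beside 0.01 for all genes. Ltf, which mammary epithelium also makes, gave 19.3% to 85.8% of the summed level of this list in the tumors and 81.8% to 98.9% in the glands. Without Ltf, S100a8 and S100a9, the remaining 8 markers were summed to 28.8 to 140 in the tumors and to 9.93, 2.99 and 16.3 in the glands, and Mpo, Retnlg and Mmp8 among them were not called. S100a8, an abundant calcium-binding protein of neutrophils that squamous epithelium also makes, was at 202 to 2114 in the tumors and at 0.985, 1.34 and 23.2 in the glands. Csf3r, the receptor of the granulocyte growth factor G-CSF, was at 7.41 to 53.8 in the tumors and at 2.27 to 4.50 in the glands. The receptor gene of the ELR chemokines was not called. Cxcr2 was at 0.944 to 11.5 in the tumors, with the highest value in tumor 7, and at 3.94, 0 and 3.54 in the glands (log2 fold change 0.36 ± 0.57, SE, limma, adjusted p = 0.669). The sign of the Cxcr2 change turned without gland 2 (-0.39) and under scaling to epithelial genes (-0.32), and it was not called in either. Cxcl5 with the mean of the neutrophil list had r = 0.74 over the 6 mice (exact permutation p = 0.104, adjusted p = 0.234) and rho = 0.49 (exact permutation p = 0.356, adjusted p = 0.533), with r = 0.49 without the 2 farthest mice and between 0.07 and 0.89 without any single mouse. Over the 10 tumors, which share mice, Cxcl5 with the mean of the neutrophil list had r = 0.87. Of 12 macrophage and dendritic cell markers, Cd68, Itgam and Itgax were called higher and 1, Clec9a, lower, beside 10.5% and 10.1% of all listed genes. The share called lower was near that background. The 12 markers were summed to 969 to 4621 in the tumors and to 829, 538 and 1868 in the glands. The part of neutrophil or macrophage content in the chemokine values was not tested.

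Cxcl9, a T cell attractant, was lower in the tumors. Its level ranged from 0.683 in tumor 9 through a median of 2.36 to 3.85 in tumor 4, and the glands held 37.8, 43.1 and 41.8. All tumors lay below all glands, with the lowest gland 9.81-fold above the highest tumor, where 10.3% of all listed genes had all tumors below all glands. The log2 fold change was -3.80 ± 0.29 (SE, limma over all listed genes, adjusted p = 3.16e-07). The tumor libraries held 3 to 82 reads of Cxcl9 and the glands 343 to 882. Of 11 T cell markers, 10 were called lower in the fit over all genes and none higher, beside 10.1% and 10.5% of all listed genes. The markers had a median log2 fold change of -2.57. Their sum was 19.9 to 56.6 in the tumors and 613, 31.2 and 530 in glands 1, 2 and 3. Gland 2 was thus within the range of the tumors for T cell markers, while its Cxcl9 was the highest of all libraries. Cxcl9 remained called without gland 2 (log2 fold change -3.76, adjusted p = 5.24e-06, limma).

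Cxcl10, the other interferon-induced member, was low in every library. Tumor values ran from 1.04 in tumor 6 through a median of 1.67 to 3.57 in tumor 7, and the glands held 3.55, 4.08 and 1.71. The groups overlapped, and the log2 fold change was -0.54 ± 0.26 with a 95% interval of -1.09 to 0.00 (limma, adjusted p = 0.123). It was called only under scaling to epithelial genes (-1.19, adjusted p = 7.50e-04, limma). Over the 10 tumors, which share mice, r was -0.19 for Cxcl9 with Cxcl10 and 0.05 for Cxcl9 with the mean of the T cell list. Over the 6 mice, Cxcl9 and Cxcl10 had r = -0.11 (exact permutation p = 0.821, adjusted p = 0.923), rho = 0.03 (exact permutation p = 1, adjusted p = 1), and r = -0.62 without the 2 farthest mice. Cxcl9 with the mean of the T cell list had r = 0.31 (exact permutation p = 0.554, adjusted p = 0.713), rho = 0.37 (exact permutation p = 0.497, adjusted p = 0.639), and r = 0.55 without 2 mice. Their receptor Cxcr3 was at 0 to 1.14 in the tumors and at 4.58, 1.55 and 4.27 in the glands, and it was called lower (log2 fold change -1.45 ± 0.26, SE, limma, adjusted p = 7.11e-04). That call was lost with a pseudocount of 4, and without gland 2 the change was -1.81 (limma, adjusted p = 1.61e-04).

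Cxcl13, the B cell attractant, was split by the glands. Gland 1 and gland 3 held 58.1 and 43.3, whereas gland 2 held 0 of its reads. Among the tumors it ranged from 0.283 in tumor 6 through a median of 2.80 to 15.4 in tumor 1. Every tumor lay below glands 1 and 3 and, by value, above gland 2, although tumors 6 and 10 held only 3 reads. The fit over all libraries gave a log2 fold change of -2.01 ± 0.98 with a 95% interval of -4.11 to 0.09 (limma, adjusted p = 0.137). Without gland 2 the change was -3.90 and was called (limma, adjusted p = 8.71e-04), and without gland 1 or gland 3 it was -0.96 and -1.17. On the recovered reads it was called by edgeR (-3.21, adjusted p = 0.0232) and DESeq2 (-3.24, adjusted p = 0.0367). The 10 B cell markers were summed to 393, 7.59 and 384 in glands 1, 2 and 3 and to 4.0 to 153 in the tumors, where tumor 1 held the highest value. In the fit over all genes, 7 of the 10 were called lower, beside 10.1% of all listed genes. The lymph node stroma genes Ccl19 and Ccl21a were at 34.8 and 92.2 in gland 1, at 33.4 and 50.5 in gland 3 and at 0 and 0.258 in gland 2. The part of lymphoid tissue in these values was not tested. The receptor of CXCL13, Cxcr5, was at 1.19 to 4.32 in the tumors and at 20.0, 2.32 and 15 in the glands, and it was called lower (log2 fold change -1.81 ± 0.43, SE, limma, adjusted p = 0.00498), which was lost without gland 1 (adjusted p = 0.0580). Without gland 2 the change of Cxcr5 was -2.63 (limma, adjusted p = 2.96e-05). Over the 10 tumors, which share mice, Cxcl13 with the mean of the B cell list had r = 0.86. Over the 6 mice, Cxcl13 with the mean of the B cell list had r = 0.91 (exact permutation p = 0.0389, adjusted p = 0.175) and rho = 0.66 (exact permutation p = 0.175, adjusted p = 0.435), but r was 0.01 without the 2 farthest mice, so that the relation rested on them.

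**Figure D3:**
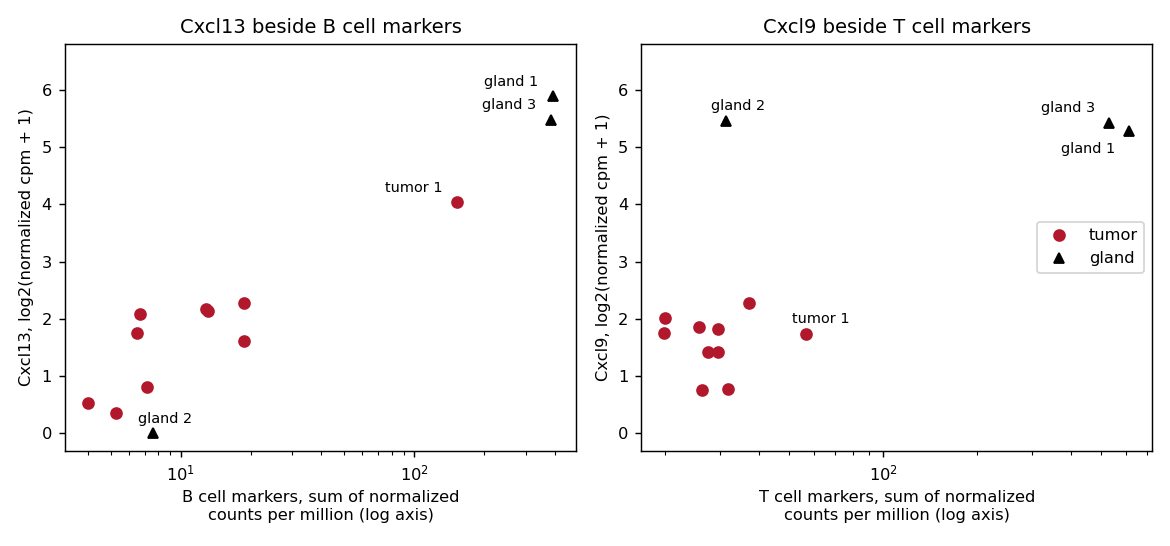
The log2(normalized cpm + 1) of Cxcl13 is plotted against the summed normalized cpm of B cell markers on the left, and that of Cxcl9 against T cell markers on the right, with log horizontal axes, circles for tumors and triangles for glands. Gland 2 lies, by value, below every tumor for Cxcl13, within the range of the tumors for both marker sums, and with the other glands for Cxcl9.

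Cxcl12, a chemokine of stromal cells, was lower in the tumors. The tumors ranged from 23.8 in tumor 6 through a median of 37.7 to 50.7 in tumor 1, and the glands held 155, 134 and 131. The groups did not overlap, and the lowest gland was 2.58-fold above the highest tumor. Of all listed genes, 10.3% had all tumors below all glands. The spread of the tumors (24.8% of their mean) was smaller than that of the ELR members. The log2 fold change was -1.91 ± 0.22 (SE, limma, adjusted p = 1.95e-05). Markers of stromal cells were counted beside it. The 10 fibroblast markers were summed to 454 to 1253 in the tumors and 3985 to 4512 in the glands. Of them, 4 were called lower and 1, Fbln1, higher in the fit over all genes. In that fit, 8 of 10 endothelial and 10 of 10 adipocyte markers were called lower. Over all listed genes, 10.1% were called lower and 10.5% higher. The part of stromal content in the Cxcl12 value was not tested. Over the 10 tumors, which share mice, Cxcl12 with the mean of the fibroblast list had r = 0.51. Over the 6 mice, Cxcl12 with the mean of the fibroblast list had r = -0.04 (exact permutation p = 0.942, adjusted p = 0.942), rho = -0.03 (exact permutation p = 1, adjusted p = 1), and r = 0.16 without 2 mice.

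The receptor genes of CXCL12 were not called. Cxcr4 was at 17.3 to 79.7 in the tumors and at 35.5, 26.3 and 40.5 in the glands (log2 fold change 0.36 ± 0.31, SE, limma, adjusted p = 0.440). Ackr3, a scavenging receptor for CXCL12, had a log2 fold change of 0.85 ± 0.39 (SE, limma, adjusted p = 0.129), and it was called without gland 3 (1.30, adjusted p = 0.0274, limma) and with plain cpm (1.16, adjusted p = 0.0217, limma). Under scaling to epithelial genes the estimates of both turned to -0.52 for Cxcr4 and -0.02 for Ackr3, without being called.

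Cxcl14, a chemokine of epithelia, had the highest mean level per kilobase of transcript among the members in the tumors. Its tumor values ran from 82.4 in tumor 1 through a median of 203 to 476 in tumor 7, and the glands held 63.5, 91.6 and 55.5. Tumor 1 lay below gland 2, and 9 of 10 tumors lay above all glands. The log2 fold change was 1.49 ± 0.37 (SE, limma, adjusted p = 0.00795). It fell to 0.60 and was not called under scaling to epithelial genes (limma, adjusted p = 0.232). In the same libraries, 11 of 12 squamous markers were called higher, beside 10.5% of all listed genes. Their sums were 576 to 4097 in the tumors against 26.7 to 43.5 in the glands. Tumor 7 held the highest squamous sum and the highest Cxcl14. Of 12 epithelial markers, 4 were called higher (Krt7, Krt5, Krt14 and Cldn4) and none lower, beside 10.5% and 10.1% of all listed genes. Tumors of the same mouse were close in Cxcl14, with spans of 1.03-fold, 1.23-fold and 1.20-fold. Over the 10 tumors, which share mice, Cxcl12 with Cxcl14 had r = -0.36. Over the 6 mice, Cxcl12 with Cxcl14 had r = -0.73 (exact permutation p = 0.0972, adjusted p = 0.234) and rho = -0.60 (exact permutation p = 0.242, adjusted p = 0.435), with r = -0.64 without 2 mice.

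Cxcl16, the membrane-anchored member, was not called. The tumors ranged from 59.9 in tumor 10 through a median of 78.8 to 108 in tumor 3, and the glands held 58.1, 56.2 and 84.5. The groups overlapped, and the log2 fold change was 0.35 ± 0.20 with a 95% interval of -0.07 to 0.76 (limma, adjusted p = 0.214), which leaves room for a change of either sign. Its estimate turned to -0.55 under scaling to epithelial genes, without being called. The receptor Cxcr6 was at 3.40 to 21.9 in the tumors and at 6.77, 1.96 and 21.0 in the glands (log2 fold change 0.15 ± 0.50, SE, limma, adjusted p = 0.851), and the estimate turned to -0.56 without gland 2 and -0.66 under scaling to epithelial genes. The sheddases Adam10 and Adam17, which release CXCL16 from the membrane, had log2 fold changes of -0.03 and 0.22 and were not called.

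**Figure D4:**
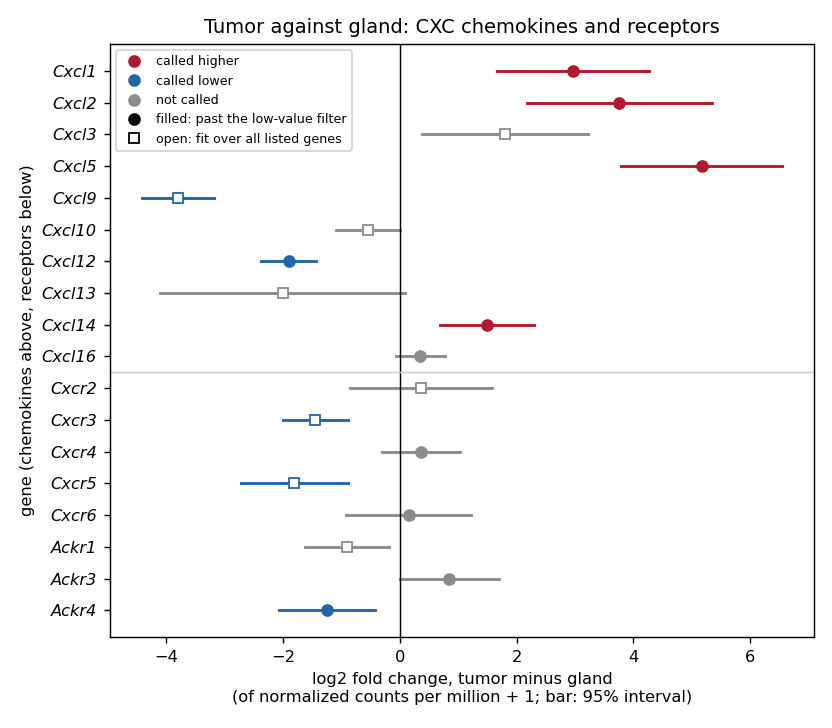
Points give the log2 fold change of tumor minus gland on log2(normalized cpm + 1) for the 10 CXC chemokines and 8 receptors, with bars for 95% intervals, filled circles for genes past the filter and open squares for values from the fit over all listed genes. Called genes are red when higher and blue when lower, and the estimates run from -3.80 for Cxcl9 to 5.17 for Cxcl5.

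Among the other receptors, the atypical receptor Ackr4, which takes up homeostatic chemokines of the CC family, was called lower (log2 fold change -1.25 ± 0.38, SE, limma, adjusted p = 0.0239), and this was lost without gland 2 (adjusted p = 0.106), without gland 3 (adjusted p = 0.0548), with plain cpm and with a pseudocount of 4. Ackr1, a chemokine-binding receptor of venular endothelium and red cells, had a log2 fold change of -0.91 ± 0.34 (SE, limma, adjusted p = 0.0538) and was called under scaling to epithelial genes (-1.53, adjusted p = 0.00126, limma) and without gland 3 (-1.09, adjusted p = 0.0495, limma). Of the 8 receptors, 3 were called lower and none higher, beside 10.1% and 10.5% of all listed genes. Among the other listed CXC ligands, Cxcl17 was called higher (log2 fold change 1.67 ± 0.41, SE, limma, adjusted p = 0.00662), at 0.419 to 8.65 against 0.171 to 0.610, whereas Cxcl15 (-1.28, adjusted p = 0.0988) and the platelet factor Pf4 (adjusted p = 0.0783) were not called.

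The members were put in order after their levels were divided by transcript length. In the tumors, Cxcl14 led with 117 ± 58.5 normalized cpm per kilobase (SD, n = 10), followed by Cxcl5 (32.2 ± 26.3), Cxcl16 (31.3 ± 6.08), Cxcl1 (23.4 ± 16.0), Cxcl2, Cxcl12, Cxcl3, Cxcl13, Cxcl10 and Cxcl9. Only the step from Cxcl14 to Cxcl5 exceeded the larger SD of the neighbours. In the glands, the mean of Cxcl14 was 38.4 ± 10.4 (SD, n = 3), and that of Cxcl13 was 29.4 ± 26.3 through its 0 in gland 2. Per kilobase, Cxcl13 exceeded Cxcl14 in gland 1 (50.5 and 34.8) and in gland 3 (37.6 and 30.4), and it led the order without gland 2. Next came Cxcl16 (24.6 ± 5.85), Cxcl12 (19.6 ± 1.81), Cxcl9 (14.2 ± 0.965), Cxcl10 and Cxcl1, whose places were exchanged without gland 2. Cxcl2, Cxcl3 and Cxcl5 were last, with at most 5 reads in any gland, and have no order among themselves. Among the gland means, the steps from Cxcl12 to Cxcl9 and from Cxcl9 to Cxcl10 exceeded the larger SD.

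Of 28 listed inducers, response genes and processing enzymes of CXC chemokines, 3 were called higher and 8 lower in the fit over all genes, where 10.5% and 10.1% of all listed genes were called. The share called higher was near that background. The cytokine Il1b, which induces ELR chemokines, was at 10.9 in tumor 6 to 106 in tumor 7 and at 1.46, 1.14 and 4.63 in the glands (log2 fold change 3.79 ± 0.58, SE, limma, adjusted p = 2.05e-04). Il1a was called higher too (1.59 ± 0.44, SE, limma, adjusted p = 0.0129), as was Nfkbiz, a nuclear cofactor of NF-kappaB at inflammatory genes (1.68 ± 0.16, SE, limma, adjusted p = 2.58e-06). In contrast, Nfkbia, the inhibitor that NF-kappaB induces, was lower (-1.44 ± 0.18, SE, limma, adjusted p = 2.98e-05), as were Relb (-1.58) and Nfkb2 (-1.60) of the alternative pathway. Of the genes of interferon signaling, Irf1 (-1.41 ± 0.18, SE, limma, adjusted p = 4.57e-05) and the receptor chain Ifngr1 (-1.17) were lower. The lymphotoxins Ltb (-2.81) and Lta (-1.07), which organise lymphoid tissue, were lower as well, but gland 2 (7.02 and 0.723) lay within the tumors' range for both (2.05 to 13.4 and 0.455 to 1.68). Tnf, Il17a and Il1r1 were not called, nor were the receptor chain Ifngr2 (-0.39) and the NF-kappaB genes Nfkb1 (-0.30) and Rela (-0.24).

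Over the 10 tumors, the genes most like each member past the filter were taken by the Pearson r of log2 levels, as a description over libraries that share mice. Only genes past the filter were searched, which leaves out Cxcl3, with an r of 0.96 to Cxcl2. Cxcl5 was most like Cxcl1 (0.96) and Ifi202b (0.96), Cxcl1 was most like Usp6nl (0.97) and Pmaip1 (0.97), and Cxcl2 was most like Ifitm1 (0.98) and Clec4d (0.95), a lectin receptor of myeloid cells. Cxcl12 was most like Smc5 (0.90) and Fap (0.90), a protease of activated fibroblasts, Cxcl14 was most like Dcun1d3 (0.95) and Fhod3 (0.93), and Cxcl16 was most like Pilra (0.90) and Ccdc68 (0.90).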

How the data were processed

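Total RNA of flash-frozen tissue was sequenced as paired-end reads. For alignment to mm10 the authors used Rsubread, with featureCounts for the counts of each gene and edgeR for their normalization. The deposited signal values are counts divided by an effective library size, and dividing by the smallest step of each library gave a whole number for 100% of them (tolerance 0.01 reads), so whole reads were recovered. The strand setting and the filter behind the table are not given in the sources used here.

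The 13 libraries were grouped by their labels. The test was limma 3.58.1 (R 4.3.3) on log2(normalized cpm + 1) with condition as the only term, a variance trend and Benjamini-Hochberg adjustment. A total of 3418 genes that did not exceed 5 in most libraries were not tested, and the 4 members among them take their values from the fit without this filter. Tumors of the same mouse were taken as separate samples. edgeR 4.0.16 and DESeq2 1.42.0 on the recovered reads, other scalings, pseudocounts, filters, mouse averages and left-out libraries were the alternatives. Named genes were the members, their receptors, other CXC ligands, inducers, Tsg101, defining markers and, for each member past the filter, the 2 genes past the filter most like it. Gene lists were written from general knowledge, and members and lists were chosen with earlier results of these data known. Steps were tested on simulated data. Floors and depths cover counting error only. The labels name UNMC and Novogene without assigning libraries, so no batch could be separated. Some genes are not reported here.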

Additional observations from a re-analysis of the deposited data

Results flagged for a closer look

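Among the 10 members and 8 receptors, 4 genes had a tumor whose gap to the nearest other tumor was large for the range of the 10 tumors. Dixon's criterion was used, which chance alone meets in about 1 of 20 groups of normally distributed values. It was applied to normalized cpm without log2, where high values spread more widely, so that this rate need not hold and the flags depend on the scale. Cxcl13 was at 15.4 normalized cpm in tumor 1, where the next tumor held 3.87. Cxcr6 was at 21.9 in tumor 1 beside 10.1 in the next tumor. Cxcl14 was at 476 in tumor 7 beside 266, and Cxcl10 was at 3.57 in tumor 7 beside 2.36.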

How the results depend on the processing

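The 4 members called higher with the filter remained 4 when any single library was left out (range 4 to 4), when tumors of each mouse were averaged and with mouse as a random block. Cxcl1, Cxcl2 and Cxcl5 among them passed the filter only through the tumors, so that the filter favors this count. With no filter the count was also 4. The count called lower was 1 to 1 over left-out libraries, and it was 2 with no filter and 2 with a filter of above 5 in at least 3 libraries, which was chosen after seeing the data and retains Cxcl9. Members called without the filter numbered 6 to 7 over left-out libraries. Over all genes, the calls ranged from 977 to 1506 higher and from 659 to 1121 lower when a library was left out, with the highest counts without gland 3. Without the filter, 1538 genes were called lower. Plain cpm gave 1864 higher and 495 lower, and scaling to epithelial genes gave 512 and 4545. No pair of measures passed after adjustment under any left-out mouse (0 to 0), but with 5 mice the smallest exact permutation p is 0.0167, which for a single pair adjusts to 0.15, so that this says nothing about stability. Cxcl1, Cxcl2, Cxcl5 and Cxcl9 were called under every alternative, though their log2 fold changes ranged from 2.01 to 3.85, from 2.21 to 8.19, from 3.38 to 9.21 and from -4.63 to -2.88, with the lowest values of Cxcl2 and Cxcl5 at a pseudocount of 4 and the highest from DESeq2. Cxcl3 was also called with a pseudocount of 0.25 and with plain cpm, and Cxcl13 with a pseudocount of 4 and when scaled to epithelial genes.

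Same-numbered tumors and glands came from different mice, and their deviations correlated at -0.58, 0.04 and -0.66, so that the numbers do not pair them. With the replicate block, which uses only 3 numbers, 3 members were called higher and 0 lower, with Cxcl12 (-1.84, adjusted p = 0.0540, limma) and Cxcl14 (0.82, adjusted p = 0.371, limma) no longer called, nor Cxcr3, Cxcr5 and Ackr4, while Cxcl3 was called without the filter (1.92, adjusted p = 0.0464, limma), and 362 genes were called higher and 182 lower. Depth limits Cxcl2 and Cxcl3, at 3 reads or fewer in all 3 glands, and Cxcl5, at 0 reads in 2 glands, so that their gland levels are uncertain. The 3-read floor is an upper limit only where a gland held 0 reads. Marker counts and the order without gland 2 were added after seeing the data.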
